A study of Mus musculus with 2 samples.

Results

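The replication-dependent histone genes encode the linker histone H1 and the core histones H2A, H2B, H3 and H4 that package newly copied DNA. They were taken as every protein-coding gene whose symbol starts with Hist1h, Hist2h, Hist3h or Hist4h in the gene tables made with GENCODE annotation release M21. This gave 67 genes of 22028 protein-coding genes and 55536 genes in all. The libraries came from the embryonic facial prominence of B6NCrl mouse embryos of mixed sex at 12.5 days, an inbred strain with no treatment in the labels. Replicate 1 was a pool of 120 embryos and replicate 2 a pool of 88. Each library was made from 10 ng of RNA that was selected for polyA tails, per the labels, and primed with oligo-dT. The series holds 1 tissue at 1 age, so there were no conditions to compare, and every comparison between the replicates sets 1 library against 1 library.

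Histone proteins of this class are needed while DNA is copied, and their genes are transcribed mainly in S phase. Their messages are the known exception to polyadenylation in animals. In place of a polyA tail they end shortly after a conserved stem-loop, which the stem-loop binding protein Slbp holds and which is cut with the help of the U7 small nuclear RNP. The genes sit in clusters, mostly lack introns, and occur in many near-identical copies. A replication-independent set, such as H3f3a and H2afz, is made throughout the cell cycle, mostly has introns and carries ordinary polyA tails. In bulk tissue, fewer cells in S phase and less histone RNA per cell cannot be told apart.

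The stem-loop was read from the GENCODE M21 sequence of each gene's leading transcript, the one with the highest mean level. It is a 6-base stem, a 4-base loop and the matching stem, and 45 of 67 leading transcripts held it whole. Of 21884 leading transcripts of other protein-coding genes, 4 held it (0.0183%), those of H2afx, H2bfm, Syncrip and Trim17. The sites below are shown because they mark the 3′ end of these messages. Another reason is that Hist1h2ap and Hist1h2ao, alike here, differ from the others shown in the bases before the stem. Each is 30 bases of the transcript strand on mm10, 5′ to 3′, with the stem-loop in capitals.
Hist1h2ap, chr13:21833029-21833058, minus strand: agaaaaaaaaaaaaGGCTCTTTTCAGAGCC
Hist1h2ao, chr13:21810884-21810913, plus strand: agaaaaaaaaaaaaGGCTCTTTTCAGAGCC
Hist1h2ae, chr13:23570668-23570697, minus strand: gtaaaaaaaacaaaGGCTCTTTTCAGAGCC
Hist1h2ag, chr13:22042483-22042512, minus strand: tgatcgccaacaaaGGCTCTTTTCAGAGCC
Hist3h2ba, chr11:58949335-58949364, plus strand: gcccccaacccaaaGGCTCTTTTCAGAGCC
Hist1h3c, chr13:23745047-23745076, minus strand: gctatttaaaaaaaGGCTCTTTTAAGAGCC
Hist2h2ac, chr3:96220418-96220447, minus strand: cacgaatccaaaaaGGCTCTTTTTAGAGCC
Hist1h4d, chr13:23581936-23581965, plus strand: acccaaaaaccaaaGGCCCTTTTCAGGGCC
Hist1h4b, chr13:23757352-23757381, plus strand: taactgttacaaaaGGTCCTTTTCAGGACC

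The form printed for Hist1h2ap was the commonest, with 25 genes: 10 H2A, 7 H2B, 5 H3 and 3 H1. None of the 12 H4 stem-loops had it. The form of Hist1h4d was found in 7 genes, all H4, and the form of Hist1h3c, with a different last loop base, in 6 genes of types H1, H2B and H3. Hist1h2ap and Hist1h2ao were the 2 members with a run of 12 A bases directly before the stem. The other member with a run that long was Hist1h2ac, whose run of 15 lay downstream of the stem-loop. Among leading transcripts of 300 to 600 bases, a run of at least 12 A was present in 2 of 39 members (5.13%) and in 13 of 1383 other protein-coding genes (0.94%). Over leading transcripts of any length the order was the other way, with 3 of 67 members (4.48%) and 1462 of 21884 other genes (6.68%). Oligo-dT primes on A runs, and the part of this run in the level of Hist1h2ap was not tested.

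Levels are deposited TPM values, a length-corrected share of all transcripts in a library. Of the 67 genes, 58 (86.6%) reached a TPM of at least 1 in both libraries, against 60.7% of all protein-coding genes, and their median level was 8.86 TPM against 4.79. They summed to 5097 TPM in replicate 1 and 4940 in replicate 2, or 0.510% and 0.494% of each library's TPM. That total includes the ERCC spike-ins, at 65218 and 71718 TPM. As reads the 67 genes took 41064 and 56267 counts, or 0.147% and 0.141% of the expected counts assigned to genes, spike-ins left out. The tables summed to 28705073 and 41092194 expected counts in all. The 6 listed tissue markers, Msx1, Prrx1, Twist1, Pdgfra, Krt14 and Epcam, were present at 62.1 to 319 TPM in both libraries.

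**Figure D1:**
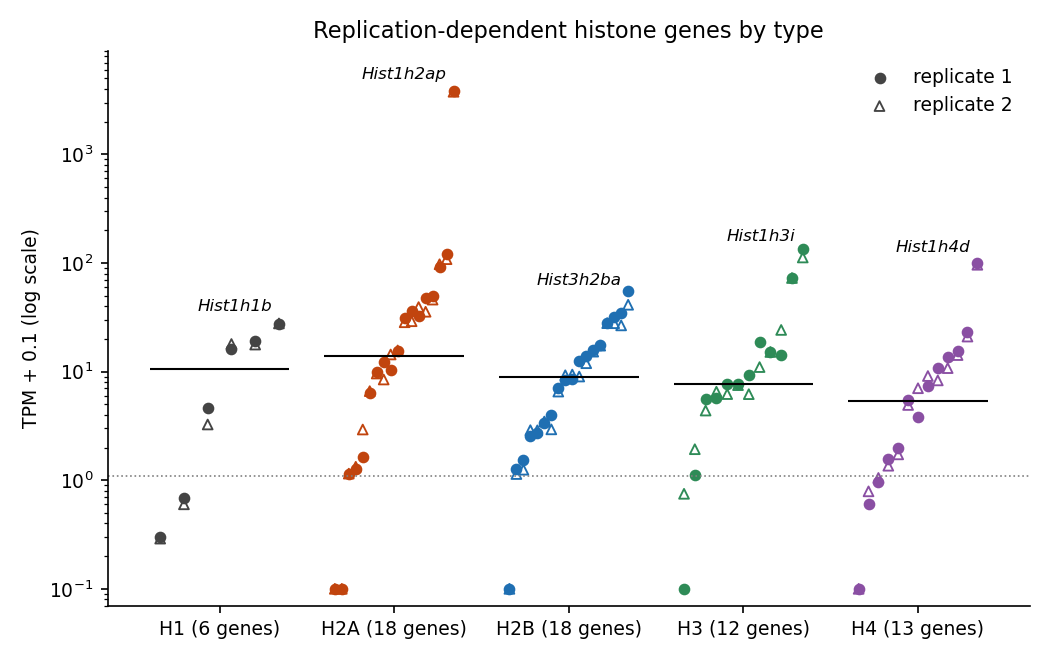
Level of each of the 67 histone genes, as TPM + 0.1 on a log axis, grouped by histone type and ordered by mean level within a type. Filled circles are replicate 1, open triangles replicate 2, black bars the median of the type and the dotted line a TPM of 1; Hist1h2ap, at 3841 and 3771 TPM, lies far above every other gene.

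Hist1h2ap, an H2A gene, carried most of the histone signal. Its level was 3841 TPM in replicate 1 and 3771 in replicate 2 (mean 3806 ± 49.4, SD, n = 2), from 27122 and 37770 expected counts, which placed it at rank 8 of all protein-coding genes. This was 75.4% of the summed TPM of the 67 genes in replicate 1 and 76.3% in replicate 2. The next histone gene by TPM in M21, Hist1h3i, had 135 and 112 TPM. This order did not hold elsewhere: in release M4, Hist1h4d (367 and 357 TPM) and Hist1h2ae (274 and 245) were above Hist1h3i (136 and 114), and both also had more M21 counts. Without Hist1h2ap, the remaining 66 genes summed to 1256 and 1169 TPM. The gene lies on mm10 at chr13:21833026-21833507 on the minus strand, in the Hist1 cluster, with 1 exon and an annotated 3′ UTR of 57 bases that ends 3 bases past the stem-loop.

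Hist1h2ap has a near-identical copy, Hist1h2ao, which was listed at 0 counts in both libraries. Their annotated transcripts, 482 and 480 bases long, are identical over 452 bases. What differs is 30 bases at the 5′ end that only the Hist1h2ap model has, and 28 bases past the stem-loop that only the Hist1h2ao model has. Of the 383 windows of 100 bases in Hist1h2ap, 353 (92.2%) also occur in Hist1h2ao. The deposited posterior mean count, a second estimate of how reads were divided, gave Hist1h2ao 17.5 ± 17.9 counts (posterior SD) in replicate 1 and 20.98 ± 20.96 in replicate 2, against 27029 ± 100.3 and 37709 ± 112 for Hist1h2ap. The annotated ends are what separates the copies in the models, and the summed count of both, 27122 and 37770, does not depend on that split. Some windows of Hist1h2ap occur in 32 other genes, Hist1h2ao included. The division of reads with the rest of those genes still enters the sum.

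The upstream sequence of this pair is also shared. In the RefSeq promoter windows on GRCm38.p6, which cover 250 bases before to 50 after each annotated start, 200 bases of Hist1h2ap recur without a difference at chr13:21810217-21810416 on the plus strand beside Hist1h2ao. They are printed from the Hist1h2ap side, chr13:21833526-21833725, minus strand, 5′ to 3′, with matches to CCAAT on either strand in capitals.
Hist1h2ap promoter: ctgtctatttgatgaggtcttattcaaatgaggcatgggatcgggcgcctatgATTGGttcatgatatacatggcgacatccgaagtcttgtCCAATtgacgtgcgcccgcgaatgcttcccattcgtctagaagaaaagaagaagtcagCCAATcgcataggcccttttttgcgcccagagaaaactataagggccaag

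Promoter windows were matched for 62 of the 67 genes. In the 250 bases before the start, CCAAT on either strand was found in 51 of 62 (82.3%), against 34.5% of 27025 promoters of all genes. All 6 H1, 18 H2A and 16 H2B windows held it, as did 8 of 10 H3 windows and 3 of 12 H4 windows. TATAAA on either strand was found in 29 of 62 (46.8%), against 13.0% of all promoters. CCAAT and TATAAA were searched separately, so a match to one may share end letters with a match to the other. Windows of divergent neighbours overlap, and 1 match can count for a pair of genes. These are letter matches, not sites of binding.

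Linker histone H1, which binds the DNA between nucleosomes, had 6 genes and 4 of them at a TPM of at least 1. By TPM in M21, Hist1h1b was highest at 27.5 and 27.7 TPM, from 327 and 466 counts. Hist1h1e had 19.0 and 17.6 TPM from more counts, 642 and 844, and was the highest in M4, at 50.9 and 47.3 TPM against 29.1 and 29.2 for Hist1h1b. Its transcript model grew from 748 to 1930 bases between the releases. Hist1h1c had 16.1 and 17.9 TPM in M21. Below these were Hist1h1a, at 4.56 and 3.16 TPM, and Hist1h1d, at 0.59 and 0.50. The testis H1 gene Hist1h1t had 0.20 and 0.19 TPM, from 3 and 4 counts. H1 genes together made up 1.35% ± 0.0163 (SD, n = 2) of the summed histone TPM.

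H2A genes made up 84.9% ± 0.561 (SD, n = 2) of the summed histone TPM. The 17 H2A genes other than Hist1h2ap made up 9.06% ± 0.139 of that sum, or 37.5% of the sum of the 66 genes other than Hist1h2ap. H2A pairs with H2B in the nucleosome. Of 18 H2A genes, 16 reached a TPM of 1. After Hist1h2ap the highest were Hist1h2ae, at 120.45 and 108 TPM, Hist1h2ag, at 91.7 and 97.3, Hist1h2ab, at 49.4 and 45.9, and Hist2h2aa2, at 47.5 and 35.5. All 528 bases of the Hist2h2aa2 transcript lie within that of Hist2h2aa1, at 15.5 and 15.6 TPM. The division of reads between Hist2h2aa2 and Hist2h2aa1 is therefore uncertain. The testis H2A gene Hist1h2aa was at 0 counts in each library, and a count of 0 allows up to 3. The median H2A gene had 13.9 TPM, the highest median of the 5 types.

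H2B genes had 17 of 18 members at a TPM of at least 1, a median of 8.80 TPM and 4.60% ± 0.344 of the summed histone TPM. Hist3h2ba led by TPM in M21, with 55.3 TPM in replicate 1 and 41.2 in replicate 2. In M4, Hist1h2bc was above Hist3h2ba, at 63.6 and 61.7 TPM against 58.3 and 43.4, and it also had more M21 counts, 541 and 769. The expected counts of Hist3h2ba, 524.6 and 554, were almost free of shared reads, with a posterior SD of 0.7 and 1.01 counts. Hist1h2br followed at 34.2 and 26.5 TPM, Hist1h2bq at 31.6 and 27.8, and Hist1h2bc at 27.8 and 27.8. The coding transcripts of Hist1h2br and Hist1h2bq that carried these levels are the same 381 bases. Each was given 31.65 TPM in replicate 1 and 26.13 in replicate 2, so the 2 genes cannot be separated. The testis H2B gene Hist1h2ba was at 0 counts in both libraries.

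Among H3 genes, 11 of 12 reached a TPM of 1, with a median of 7.58 TPM and 5.57% ± 0.208 of the summed TPM. Hist1h3i was highest at 135 and 112 TPM, from 775 and 916 counts. Hist2h3b had 72.6 TPM in both libraries. Hist1h3c was also level between the pools, at 15.1 TPM in each. H4 genes, whose protein pairs with H3, had 10 of 13 members at a TPM of at least 1, a median of 5.32 TPM and 3.57% ± 0.0248 of the sum. Hist1h4d led at 99.2 and 96.2 TPM, and also in M4 and by counts. Hist1h4i had 22.9 and 20.9 TPM, Hist1h4n 15.4 and 14.1, and Hist1h4c 10.7 and 8.20. Hist1h4m, a near copy that shares 88.1% of its windows with Hist1h4n, was listed at 0 counts, with posterior means of 4.38 ± 4.72 and 3.91 ± 4.35 counts. Hist1h4a had 0.87 and 0.95 TPM.

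By cluster, 54 genes belong to Hist1 on chromosome 13, and 47 of them reached a TPM of 1. Hist1 genes made up 94.7% ± 0.304 (SD, n = 2) of the summed TPM, and 78.3% when Hist1h2ap was left out. The 10 Hist2 genes on chromosome 3 made up 3.69% ± 0.101. Besides Hist2h3b and Hist2h2aa2, they were Hist2h2bb at 17.6 and 17.2 TPM, Hist2h2aa1 at 15.5 and 15.6, Hist2h4 at 13.5 and 10.7, and Hist2h2ac at 9.82 and 9.50. Hist2h2be had 8.31 and 9.16 TPM, Hist2h3c2 5.56 and 6.43, and Hist2h2ab 1.16 and 1.23. Hist2h3c1 was listed at 0 counts in replicate 1 and at 29.1 in replicate 2 (0.65 TPM), with posterior means of 14.1 ± 8.09 and 35.1 ± 12.5 counts. On chromosome 11, Hist3h2ba and Hist3h2a, at 31.4 and 28.4 TPM, made up 1.55% ± 0.207. Hist4h4 on chromosome 6 had 0.51 and 0.69 TPM.

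Histone H2A and H2B genes often lie head to head. There were 12 such pairs with starts 175 to 305 bases apart. By TPM in M21, with reads of near-identical copies divided as deposited, the H2A partner was higher in 7 pairs and the H2B partner in 4. Both genes of the testis pair Hist1h2ba and Hist1h2aa were at 0. Hist1h2ap, at 3841 and 3771 TPM, stood 235 bases from Hist1h2br, at 34.2 and 26.5. Hist1h2ac, at 1.04 and 1.05 TPM, stood 250 bases from Hist1h2bc, at 27.8 in each library. Apart from the testis pair, the pair closest in TPM was Hist2h2ac and Hist2h2be, at 9.82 and 9.50 TPM against 8.31 and 9.16. By counts these were far apart, with 76.2 and 105 for Hist2h2ac and 386 and 604 for Hist2h2be, whose models have 520 and 2620 bases.

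The annotated 3′ end differed widely among the genes. In 17 of 67 the leading transcript had a 3′ UTR of 0 to 2 bases, so the stem-loop lay outside the model, and 4 had a longer 3′ UTR without a whole stem-loop. A further 23 ended within 100 bases after the stem-loop, 22 ran more than 100 bases past it, and the leading transcript of Hist1h2be is not coding. A polyadenylation signal, AATAAA or ATTAAA, lay in the last 50 bases of 11 of the 22 long models and of 1 of the 23 short ones. Over other protein-coding genes the share was 66.1%, and 38.3% of those with leading transcripts of 300 to 600 bases. The long models held 18.2% and 17.4% of the histone counts. The short models held 72.4% and 73.1%. With Hist1h2ap left out of both the class and the total, the long models held 53.7% and 52.9% of the counts and the short ones 18.6% and 18.3%. Counts are not corrected for the length of the model. The median TPM per gene was 6.74 in the long models and 8.52 in the short ones, again without Hist1h2ap. A median per gene is a different measure from a share of summed counts, so the 2 orders cannot be compared. Among the long models, Hist3h2a had 31.4 and 28.4 TPM and a 3′ UTR of 1700 bases, of which 1643 lie past the stem-loop, and Hist1h4d had 770 bases past it. The class limit of 100 bases was chosen after the lengths were seen.

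Shared sequence limits what can be said of single genes. Of 67 genes, 5 had no 100-base window of their own in the M21 transcripts, on either strand, 23 had under 50% and 39 had 50% or more. The medians of the posterior SD of the count in replicate 1 were 27.8% of its mean in the 23 genes and 4.67% in the 39. In the 5 genes without a window of their own the median was 10.0%, so it did not fall steadily with the share of own windows. Of the 58 genes at a TPM of at least 1, the posterior SD was over 10% in both libraries for 22 and over 20% for 10. It was highest for Hist1h2ah among these 58, at 69.8% and 51.9%. For Hist1h2ap it was 0.371% and 0.297%. At the other end, Hist1h1b, Hist1h1a, Hist1h1t, Hist2h4, Hist2h2be and Hist4h4 had whole-number counts above 0 in both libraries, so no read had been divided. The 5 genes with no window of their own, Hist2h3b, Hist2h2bb, Hist2h2aa1, Hist2h2aa2 and Hist2h3c1, share every window with another model. For Hist2h3b and Hist2h2bb this was Gm20628 (1.24 and 1.29 TPM), annotated as antisense. Gm20633 and Gm20632, the models for Hist2h2aa1 and Hist2h2aa2, are also annotated as antisense. For Hist2h3c1 it was Gm20634 (1.89 and 0.96 TPM), annotated as a processed transcript. No source used here states whether strand was used in counting. The Hist2h2aa2 transcript also lies whole within that of Hist2h2aa1. The deposited estimates nevertheless divided some of these reads narrowly, with a posterior SD of 1.97% and 1.69% for Hist2h3b and 4.02% and 3.11% for Hist2h2bb. It was wider for Hist2h2aa2 (10.0% and 11.6%), Hist2h2aa1 (24.02% and 19.65%) and Hist2h3c1 (57.3% and 35.7%).

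**Figure D2:**
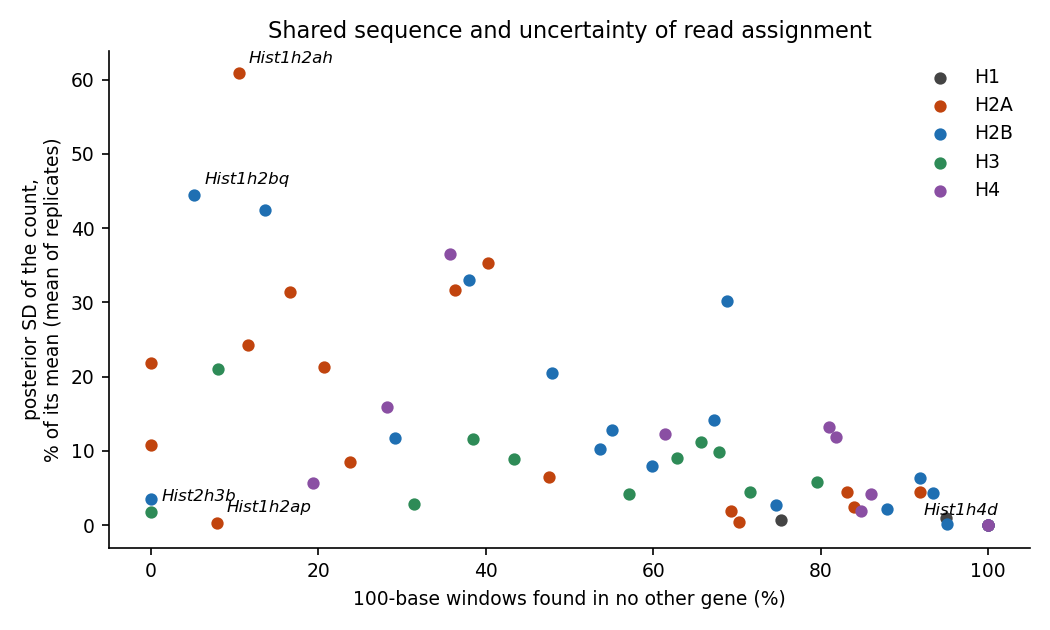
Percent of a gene's 100-base windows found in no other gene's M21 transcripts, against the posterior SD of its count as a percent of the posterior mean, averaged over both replicates, for the 58 histone genes at a TPM of at least 1. Genes with few windows of their own span the range from Hist1h2ap, under 1%, to Hist1h2ah, the highest, while Hist1h4d, with 100% own windows, sits at 0.0342% and 0.0268%.

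Between the pools, no histone gene differed by 2-fold or more on TPM + 1. At a lower threshold, histone genes were apart more often than protein-coding genes at the same minimum level. The log2 ratio of TPM + 1, replicate 2 over replicate 1, had a median of -0.026 over the 67 genes, and 0 over all protein-coding genes. Over the 58 histone genes at a TPM of at least 1 the median was -0.076. The matching median over protein-coding genes at that level was not computed. No member reached a log2 ratio of 1 in either direction, where 0.182% of all protein-coding genes did. With so low a share, finding none among 67 genes says little. Replicate 2 was higher for 25 genes, lower for 37 and equal for 5. The same split over all protein-coding genes was not counted, so these numbers are not a result about histone genes. At a log2 ratio of 0.5, a threshold chosen after the values were seen, 5 of the 58 genes at a TPM of at least 1 were apart (8.62%), against 2.09% of such protein-coding genes. These 5 were Hist1h4k (3.71 and 6.93 TPM), Hist1h3h (14.1 and 24.1), Hist1h2ad (1.55 and 2.83), Hist1h3b (18.6 and 10.9) and Hist1h3g (9.25 and 6.10). With 2 libraries, an exact 2-sided sign-flip test cannot go below p = 0.5, so no test was made.

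Hist1h3h and Hist1h3b stood apart in opposite directions. The ratio of library-scaled counts was between 1.31 and 2.23 for Hist1h3h and between 0.466 and 0.729 for Hist1h3b (exact conditional 95% intervals, counting error only). Hist1h3h shares 188 of its 312 windows (60.3%) with Hist1h3b, and its posterior SD was 27.8% and 14.2% of the mean count. For Hist1h3b the posterior SD was 8.29% and 9.60%. Hist1h3i, with 775 and 916 counts, shares 187 windows with Hist1h3h. The summed counts of Hist1h3h and Hist1h3b, 259 and 345, gave a ratio of 0.932, with an interval from 0.792 to 1.10. This pair was chosen after its values were seen, and summing a rise with a fall evens out the ratio. The part of read sharing in the opposite differences was not tested. Hist3h2ba, with little shared sequence, had a ratio between 0.655 and 0.834. For Hist1h2ap the interval was 0.960 to 0.991.

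**Figure D3:**
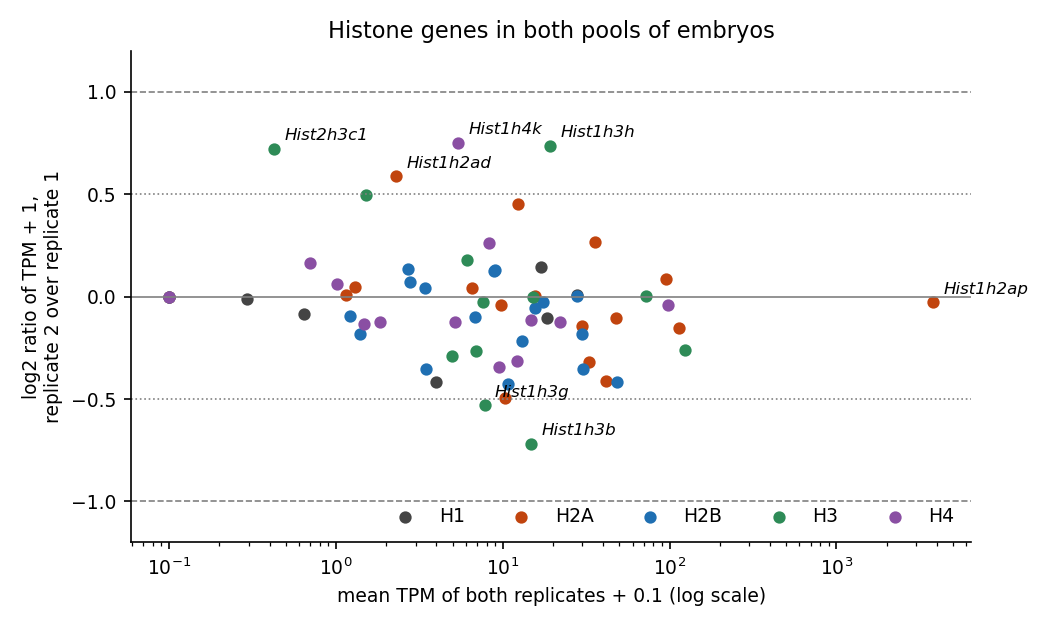
Log2 ratio of TPM + 1, replicate 2 over replicate 1, against the mean TPM + 0.1 (log axis) for each of the 67 histone genes, coloured by type. Dashed lines mark a log2 ratio of 1 and dotted lines 0.5; no point lies beyond the dashed lines, and the 6 genes named beside Hist1h2ap lie beyond the dotted ones.

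The levels of several histone genes depended on the annotation. The same libraries were also quantified with release M4, in which 64 of the 67 genes were found by gene ID, all but Hist2h2bb, Hist1h2bm and Hist1h2bh. Of the 64, 9 (14.1%) were at least 2-fold lower in M21 in both libraries, on TPM + 1, against 0.335% of protein-coding genes. These were Hist1h2ae, Hist1h4d, Hist1h2bc, Hist1h1e, Hist1h2bk, Hist1h4c, Hist1h3d, Hist1h2ac and Hist1h1d. For Hist1h4d the TPM went from 367 and 357 in M4 to 99.2 and 96.2 in M21, while its counts changed by a factor of 1.01 and 1.00. Its annotated transcript grew from 393 to 1138 bases. Hist1h1d grew from 744 to 7425 bases, and its TPM went from 4.93 and 4.13 to 0.59 and 0.50.

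Annotated transcript lengths differed between releases for 22 of the 64 genes, and 8 of the 9 lower genes were among them, each with a longer M21 model. Hist1h2bk was the other lower gene. Its model kept 476 bases, and its counts were 0.424 and 0.487 times those in M4. In the 42 genes with equal lengths the median M21 to M4 ratio of TPM was 0.956 in replicate 1 and 0.953 in replicate 2. A further 2 genes (3.12%) were at least 2-fold higher in M21, against 0.983% of protein-coding genes. Hist1h2br went from 0.74 and 1.04 TPM to 34.2 and 26.5, and Hist1h2bq from 1.88 and 1.25 to 31.6 and 27.8. In M21 each of these 2 genes has a coding transcript of the same 381 bases. For neither gene was a transcript of 381 bases among the 2 listed in M4. On expected counts as CPM + 1 in place of TPM + 1, none of the 64 genes was at least 2-fold lower in M21 and 1 was higher. The pseudocount damps ratios at low counts. By plain counts Hist1h2bk was more than 2-fold lower in both libraries, and Hist1h2bq had 2.47 and 4.16 times its M4 counts. The level of Hist1h2ap, with 482 bases in both releases, was 4152 and 4055 TPM in M4.

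**Figure D4:**
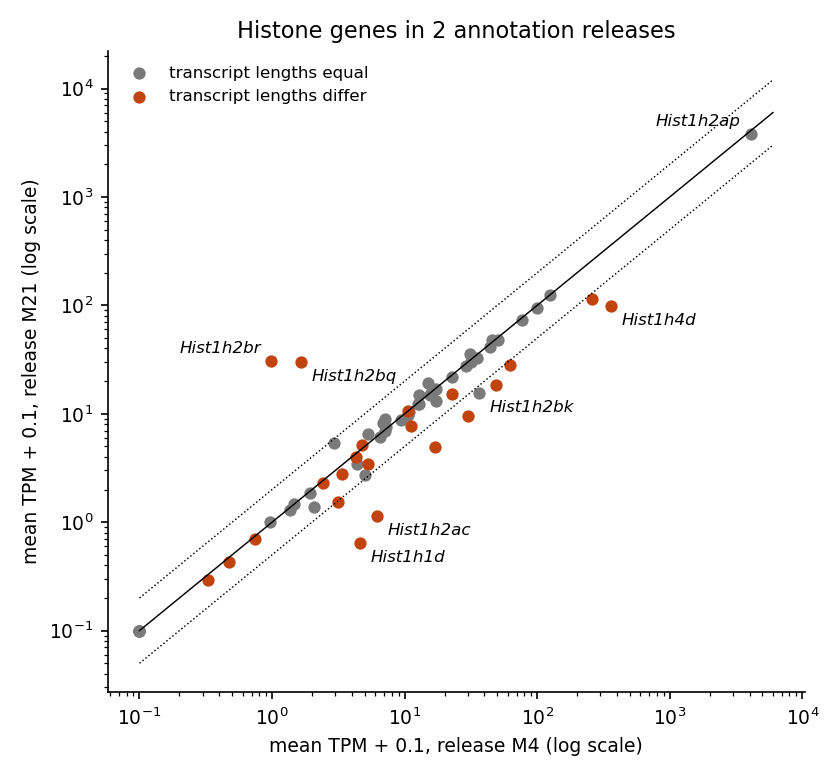
Mean TPM + 0.1 of both replicates in release M21 against release M4, on log axes, for the 64 histone genes found in both. Orange points have different annotated transcript lengths in the 2 releases; the solid line marks equal values and the dotted lines a 2-fold difference, and most points below the lower dotted line are orange.

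The replication-independent histone genes, which supply chromatin outside S phase, were set beside these levels. Of 15 genes on this list, 14 were found and 11 reached a TPM of 1, as did 60.7% of all protein-coding genes. They summed to 8622 and 8620 TPM, so the replication-dependent genes had 0.591 and 0.573 times as much in replicates 1 and 2, and 0.146 and 0.136 times without Hist1h2ap. The highest were H3f3a (2500.3 and 2508 TPM), H2afz (1884 and 1916), H3f3b (1764 and 1793) and H2afv (571 and 542). H2afx, whose leading transcript holds the stem-loop, had 327 and 312 TPM. H2afb1 and the oocyte linker gene H1foo were at 0 counts in both libraries, and the spermatid linker gene Hils1 had 1 count in each. These ratios compare messages with polyA tails against a class that mostly lacks them, in libraries selected for polyA. The part of that selection was not tested.

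Genes that make and use histone messages were present throughout. For each list below, the share of all protein-coding genes that reached a TPM of 1 in both libraries was 60.7%. All 20 listed genes of histone 3′ end processing and decay reached a TPM of 1, with a median of 46.3 TPM. Slbp, which binds the stem-loop, was highest at 208 and 211 TPM, followed by Srrt (139 and 134), which works with the cap-binding complex, Ncbp2 (115 and 117), a subunit of that complex, and Tut4 (115 and 109), a terminal uridylyl transferase. Lsm10 and Lsm11, proteins of the U7 particle, had 35.6 and 33.5 TPM, and 7.28 and 8.56. Npat, the transcriptional coactivator of histone genes, had 17.2 and 18.8 TPM. All 17 histone chaperones and import factors reached a TPM of 1, with a median of 118 TPM. The histone-binding proteins Rbbp4 and Rbbp7 led with 382 and 408, and 316 and 314 TPM, then came the nucleosome assembly gene Nap1l4 (253 and 242) and the FACT subunit Ssrp1 (243 in each). The 24 S phase genes also reached a TPM of 1, with a median of 99.5 TPM, led by Rrm2 (227 and 240.3) and Tyms (219 and 225), both of nucleotide synthesis, the helicase subunit Mcm6 (208 and 215) and the polymerase clamp Pcna (204 in each). No gene of these lists reached a log2 ratio of 1 between replicates, where 0.182% of all protein-coding genes did.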

How the data were processed

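PolyA plus RNA-seq of 2 libraries was deposited by the authors as gene and transcript tables on mm10 with GENCODE releases M21 and M4, per the labels. Per the file headers, the deposited tables hold expected counts with a posterior mean and SD of the count, TPM as maximum-likelihood and posterior mean estimates, and, for transcripts, the percent of a gene's abundance. Details of the aligner, quantifier and strand setting were not given in the sources used here. The effective length was the annotated length minus 99 bases. Rows that name no gene took 2.85% and 3.10% of counts and stayed out of library sizes.

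All 67 members and the lists were chosen with earlier results of these data known. The text names the 5 highest genes per type, the Hist2, Hist3 and Hist4 genes, genes under a TPM of 1, genes apart between replicates or releases, and the 4 highest of each related list; others were chosen after their values were seen. Log2 ratios used a pseudocount of 1 on the TPM. Counting intervals are exact conditional (Clopper-Pearson, 95%) intervals of rounded expected counts. They were checked on simulated counts with Poisson error, which the intervals assume, and with no reads divided between genes. That check says nothing about other error. These intervals, like the limit of 3 for a count of 0, take in counting error alone. They leave out the division of reads between genes, and PCR copies were not marked by molecular identifiers. Transcript sequences came from GENCODE M21 and promoters from RefSeq (GRCm38.p6). Of the symbols listed, H3f3c had no match. Alternatives were the posterior mean TPM, expected counts, release M4, other minimum levels and pseudocounts, and edgeR's TMM scaling (edgeR 4.0.16, R 4.3.3, counts rounded). Others were ERCC spike-in scaling, members with whole-number counts (0 included), and leaving out each replicate. Computations used Python 3.11.15, pandas 2.3.3 and scipy 1.17.1.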

Additional observations from a re-analysis of the deposited data

Results flagged for a closer look

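The files hold 3 rows with histone symbols that are annotated as pseudogenes. They entered no comparison, and each held more counts than the 3 that a count of 0 allows. Hist1h2aj had 185 expected counts in replicate 1 and 128 in replicate 2, or 39.7 and 19.4 TPM, with posterior SDs of 55.8 and 59.6 counts. Hist3h2bb-ps had 5.4 and 10.75 counts, and Hist1h2al 6.85 and 3.84.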

How the results depend on the processing

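Of 41 alternatives tried for 9 values, besides leaving out a replicate, 16 kept the value within the spread between replicates, or a count or the median log2 ratio within 1.5 times; release M4 takes 3 unmatched genes as 0. The histone share of all TPM, spike-ins included, was 0.502% on average. It was 0.486% with posterior mean TPM, 0.144% from summed expected counts of gene rows, where spike-ins are left out, and 0.580% in release M4. Without Hist1h2ap it was 0.121% (added after seeing the data, as were the other values without it). H2A's share of the summed histone TPM, 84.9%, was 77.9% as counts, 81.3% in M4 and 37.5% without Hist1h2ap. Hist1's share, 94.7%, was 91.0% as counts, 95.5% in M4 and 78.3% without Hist1h2ap. Hist1h2ap's own share, 75.9%, was 66.6% as counts and 70.8% in M4. The ratio to replication-independent histones, 0.582, was 0.212 as counts, 0.650 in M4, 0.141 without Hist1h2ap and 0.605 without H2afx (added after seeing the data). Counts are not corrected for length, and histone transcripts are short. With 2 replicates, leaving out 1 always moves a mean by less than the SD, so this says nothing about stability; it gave 0.494% to 0.510% for the share of TPM, 84.5% to 85.3% for H2A, 94.53% to 94.96% for Hist1, 75.4% to 76.3% for Hist1h2ap, 0.573 to 0.591 for the ratio, 58 to 58 genes at a TPM of at least 1, and 11 to 11 genes apart between releases. The number of genes at a TPM of at least 1 was 42 at a minimum of 5 TPM and 61 at 0.5. The median log2 ratio between replicates, -0.026, was -0.044 with a pseudocount of 0.1 and -0.076 over genes at a TPM of at least 1. It was -0.017 with edgeR's TMM and -0.16 on the ERCC scale. Over the 10 genes with whole-number counts it was 0, and 4 of these 10 had 0 counts in both libraries. No gene reached a log2 ratio of 1 in the report's setting, 1 did with a pseudocount of 0.1 (Hist2h3c1), 1 in M4 (Hist1h3h), and 5 passed the added threshold of 0.5. Of the 11 genes apart between releases, 1 was apart on expected counts as CPM + 1, which took the split from 2 higher and 9 lower to 1 higher and 0 lower. The pseudocount damps ratios at low counts, and Hist1h2bk, at 0.424 and 0.487 times its M4 counts, fell short there. No paired analysis was possible because the series holds 1 group. Arms of 1 library leave no estimate of error between pools.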
